A study of Mus musculus with 4 samples.

Results

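The genes described here are 9 members of the chemokine system: the receptors Ccr1, Ccr2, Ccr7, Cxcr2 and Cxcr4 and the ligands Ccl2, Ccl3, Ccl4 and Cxcl12. Their probe sets were those that the array's annotation assigns to exactly 1 of these symbols, which gave 15 of the 45101 probe sets in the table, 9 for receptors and 6 for ligands. No probe set with several symbols named a member. The list was drawn up with results of these same libraries known, so the members' own differences are given as a description without a test.

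The RNA came from BA/F3, an interleukin 3 dependent mouse cell line, in 4 libraries. Their titles, source names and genotypes assign 2 to cells with a human ETV6-RUNX1 (TEL-AML1) fusion under inducible control, and 2 to cells without it, which the series' design calls empty vector lines. Both lines were given mifepristone, the inducer, at 32.5 pM for 16 h, so no library shows the fusion line without inducer. The labels do not say whether a line is 1 clone, nor how the replicates were kept apart, so p-values measure only the spread between these libraries.

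The free-text description field exchanges the conditions of both replicate 1 libraries. By that field the fusion-expressing libraries are those titled control replicate 1 and fusion replicate 2, and the control libraries are those titled fusion replicate 1 and control replicate 2. All labels agree only for the replicate 2 libraries. Libraries are therefore named by title, and differences are given under both groupings. Over the 17720 probe sets tested, the library titled fusion replicate 2 correlated with control replicate 1 at a Pearson r of 0.972, and fusion replicate 1 with control replicate 2 at 0.966. The libraries that share a title correlated at 0.947 for fusion and 0.931 for control. Those that share a replicate number correlated at 0.953 for replicate 1 and 0.960 for replicate 2, also above the pairs that share a title. Such values run over probe sets, and probe sets are no replicates.

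Chemokines are small secreted proteins that guide migrating cells along a concentration gradient. Their receptors span the membrane and couple to inhibitory G proteins, whose released subunits activate phosphoinositide 3-kinase gamma and the Rac exchange factors that drive the cytoskeleton. In the bone marrow, stromal CXCL12 acting on CXCR4 holds blood progenitors and early B cells in place. CCR2, with its ligand CCL2, brings monocytes out of the marrow to inflamed tissue, CCR1 and CXCR2 are prominent on myeloid cells, and CCR7 takes lymphocytes and dendritic cells to lymph nodes.

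The array showed receptors without the ligands that were listed with them. Cxcr4, Ccr1 and Ccr2 had probe sets whose mean over the 4 libraries was at least 4 on the log2 scale, the level required for testing, while Cxcr2 read above 4 in only 1 library. Ccr7 and all 4 ligands stayed at or next to the lowest value in the table, 2.23, in every library. Of the 15 member probe sets, 6 read that lowest value in all 4 libraries and 4 passed the filter, from 3 genes. A value at the lowest level has no order against another and is no proof that the transcript is absent.

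Cxcr4, the receptor for CXCL12, had the 1 member probe set with readings above 9 in every library. Probe set 1448710_at read 9.76 and 9.85 in the libraries titled fusion, against 10.99 and 9.73 in those titled control (log2, replicate 1 then replicate 2). The library titled control replicate 1 stood above the other 3, which lay within a narrow band. It was 2.35-fold above fusion replicate 1, 2.21-fold above fusion replicate 2 and 2.39-fold above control replicate 2. By title Cxcr4 averaged 9.81 ± 0.06 in fusion and 10.36 ± 0.89 in control libraries (SD, n = 2 each), a log2 difference of -0.56 with overlapping groups. By description it averaged 10.42 ± 0.81 in fusion libraries and 9.75 ± 0.02 in control libraries, which differed by 0.67, and the groups did not overlap. Both values rest on the library titled control replicate 1, since without it the difference was 0.07 by title and 0.10 by description. In the replicate 2 pair, where the labels agree, fusion and control differed by 0.11.

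**Figure D1:**
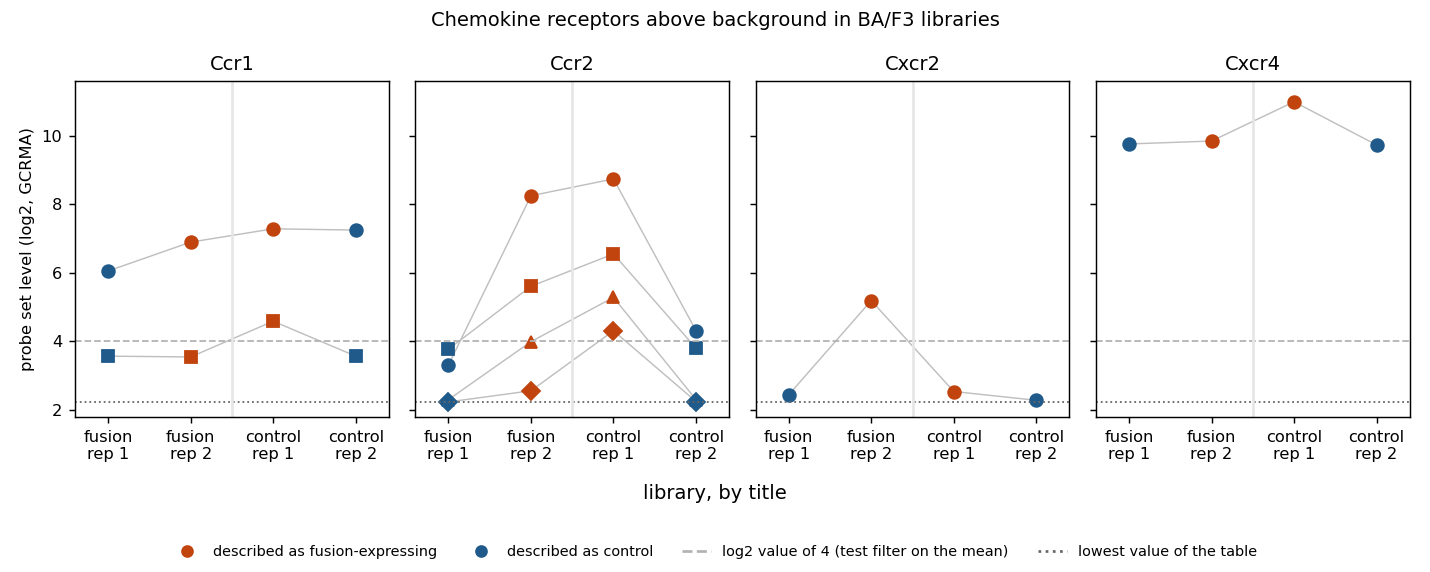
Level of each probe set (log2, GCRMA) of Ccr1, Ccr2, Cxcr2 and Cxcr4 in the 4 libraries, ordered by title with fusion to the left of control; colour gives the condition named in the description field, and each symbol shape within a panel is 1 probe set joined by a line. Ccr2 was high at 8.25 and 8.74 in libraries described as fusion-expressing and at 3.31 and 4.32 in those described as control, whereas Cxcr2 stood out in 1 library and Cxcr4 in another.

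Ccr2, the receptor for CCL2, varied most among the members. Its brightest probe set, 1421186_at, read 3.31 and 8.25 in the libraries titled fusion, against 8.74 and 4.32 in those titled control (replicate 1 then replicate 2). One library of each title was thus high and the other low, and the groups overlapped. By title the probe set averaged 5.78 ± 3.50 in fusion and 6.53 ± 3.13 in control libraries (SD, n = 2 each), a difference of -0.75. Leaving out 1 library turned its direction, since the title difference was 1.72 without fusion replicate 1 and 1.46 without control replicate 1, but -3.22 without fusion replicate 2 and -2.96 without control replicate 2.

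Grouped by description, the same probe set averaged 8.50 ± 0.35 in fusion and 3.81 ± 0.71 in control libraries (SD, n = 2 each), a log2 difference of 4.68. With any 1 library left out this difference lay between 4.18 and 5.19. The control readings of 3.31 and 4.32 are close to background, where GCRMA compresses differences, so 4.68 is not a measured fold. In the replicate 2 pair fusion exceeded control by 3.94, and in the replicate 1 pair, taken by title, fusion minus control was -5.43.

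All 4 Ccr2 probe sets ranked the libraries titled control replicate 1 and fusion replicate 2 as the highest and the next highest. Probe set 1460067_at read 6.55 in control replicate 1 and 5.61 in fusion replicate 2, the libraries described as fusion-expressing, against 3.77 in fusion replicate 1 and 3.80 in control replicate 2. The dimmer 1421187_at read 5.29 and 3.99 in the same fusion-described libraries, against 2.30 in both libraries described as control. The dimmest, 1421188_at, read 4.31 and 2.56 in the libraries described as fusion-expressing, against 2.24 and 2.25 in those described as control. Their differences by description were 2.29, 2.34 and 1.20, and the mean over all 4 probe sets differed by 2.63. Their control-described readings also lie at or near background, so the sizes are not compared between probe sets. By title they differed by -0.49, -0.65 and -0.88, and all overlapped. The 4 probe sets share 1 transcript and are no replicates of each other.

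Ccr1, a receptor for several CC chemokines, did not follow Ccr2. Probe set 1419609_at read 6.06 and 6.90 in the libraries titled fusion, against 7.29 and 7.25 in those titled control. Here the groups by title did not overlap, and the lowest reading belonged to fusion replicate 1. By title Ccr1 averaged 6.48 ± 0.60 in fusion libraries and 7.27 ± 0.03 in control libraries (SD, n = 2 each), a shift of -0.79 that became -0.37 without fusion replicate 1 and -1.21 without fusion replicate 2. By description it averaged 7.09 ± 0.27 in fusion libraries and 6.65 ± 0.84 in control libraries, which differed by 0.44 with overlap. This was -0.16 without fusion replicate 1, 0.63 without fusion replicate 2, 0.24 without control replicate 1 and 1.04 without control replicate 2. The replicate 2 pair gave -0.35, the opposite sign to the description grouping. A dimmer Ccr1 probe set, 1419610_at, read 3.57 and 3.55 in the libraries titled fusion, against 4.59 and 3.57 in those titled control, so only control replicate 1 stood out.

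Cxcr2, which binds neutrophil-attracting CXC chemokines, was above background in a single library. Probe set 1421734_at read 2.45 and 5.19 in the libraries titled fusion, against 2.54 and 2.28 in those titled control. The reading of 5.19 in fusion replicate 2 was alone, and the other 3 lay near the lowest value. The difference was 1.41 by title, with overlap, and 1.50 by description, without overlap. Without fusion replicate 2 it was 0.03 by title and 0.18 by description, so both values come from that library. Its mean of 3.12 kept it out of the test.

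**Figure D2:**
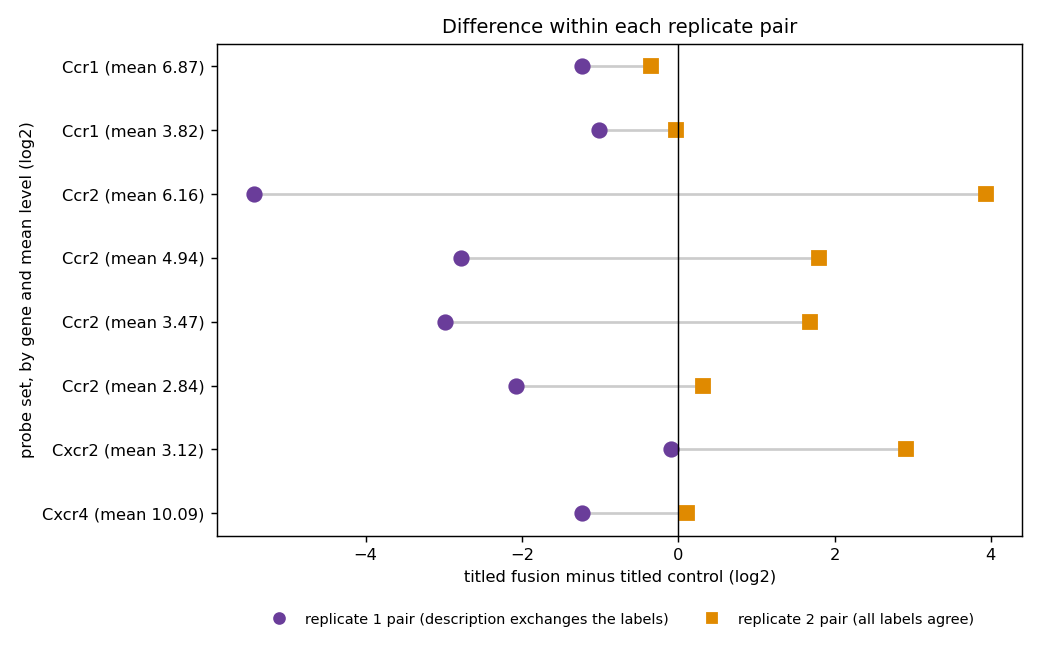
Difference between the library titled fusion and the library titled control within each replicate pair (log2, horizontal axis), for the 8 member probe sets that spanned more than 0.5 over the libraries, named by gene and mean level. The 4 Ccr2 probe sets lay below 0 in the replicate 1 pair and above 0 in the replicate 2 pair, from -5.43 to 3.94 at the brightest. Both Ccr1 probe sets lay below 0 in the replicate 1 pair. In the replicate 2 pair the brighter one differed by -0.35 and the dimmer one, near background, by only -0.02.

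Ccr7 and the ligands gave no measurable differences. Ccr7 read 2.23 in all 4 libraries at its single probe set, 1423466_at. Ccl2, which attracts monocytes through CCR2, and Ccl3, an inflammatory chemokine that signals through CCR1, each read 2.23 in all 4 libraries at 1 probe set. Cxcl12 read 2.23 in all 4 libraries at each of its 3 probe sets. Ccl4, a close relative of Ccl3, read 2.23 in both fusion libraries and 2.23 and 2.26 in the control libraries. No fold can be formed from such values.

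Across all tested probe sets, limma called 0 of the 4 tested member probe sets in either grouping at an adjusted p of 0.05. The background was as sparse: by title 0% of 17720 probe sets were called higher and 0% lower (50 had an unadjusted p under 0.05), and by description 0.0113% were called higher and 0% lower (3494 had an unadjusted p under 0.05). At least 2-fold higher without overlap by description were the 2 brightest Ccr2 probe sets, against 5.51% of all tested probe sets. Both passed the filter only through their readings in the fusion-described libraries, since they averaged 3.81 and 3.79 in the control-described ones. The same rule took no member probe set lower by description, against 3.71%, and none by title, against 0.237% higher and 0.192% lower. In the replicate 2 pair, 2 of the 4 tested member probe sets, both of Ccr2, were at least 2-fold higher in the fusion library, against 6.74%, and none was at least 2-fold lower, against 4.7%. By description 3 of the 4 had groups that did not overlap, against 50.4%, and by title 1 of the 4, against 10.7%. In the replicate 1 pair taken by title, all 4 read lower in the fusion library by 2-fold or more, against 6.77%, and none was at least 2-fold higher, against 6.25%. Nothing is read from these counts, because the same contrasts were known when the genes were listed. The Ccr2 probe sets in them were also tested only through libraries where they read high.

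Several members lie in chemokine gene clusters, and neighbours in a cluster had unlike levels. In the GRCm38.p6 RefSeq annotation Ccr1 spans chr9:123962126-123968692 and Ccr2 chr9:124101918-124109140, 133 kb apart. Of 7 receptor genes with a probe set between Ccr9 and Ccr2 on that chromosome, only Ccr1 and Ccr2 passed the filter, and the other 5, Ccr9, Cxcr6, Xcr1, Ccr1l1 and Ccr3, read 2.23 to 2.28 throughout. Ccl2, Ccl3 and Ccl4 belong to a set of 11 Ccl genes with a probe set on chromosome 11, at 82.0 to 83.7 Mb. In that set 6 genes read the lowest value in all libraries, and only Ccl9 was tested. Cxcr2 and Cxcr4 lie apart on chromosome 1, at chr1:74153994-74161246 and chr1:128588199-128592299. Ccr7 is at chr11:99144199-99155077 and Cxcl12 at chr6:117168535-117181368.

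RUNX1, whose DNA-binding Runt domain the fusion keeps, recognises a short core that is written here as TGTGGT, or ACCACA on the other strand. RefSeq promoter sequences (GRCm38.p6, 250 bases before to 50 after a transcript start) were at hand for 6 of the 9 members, Ccl3, Ccr1, Ccr2, Cxcl12, Cxcr2 and Cxcr4. The core was present in 2 of these 6, Ccr1 and Ccl3, against 16.8% of all 32851 promoters of that length. Ccr2 is shown because it varied most among the members, Ccr1 as its neighbour with a match, and Ccl3 as a gene with a match that stayed at the lowest value. Capitals mark the matches and each sequence is read 5′ to 3′ along its gene's strand.
Ccr2, chr9:124101933-124102232, plus strand: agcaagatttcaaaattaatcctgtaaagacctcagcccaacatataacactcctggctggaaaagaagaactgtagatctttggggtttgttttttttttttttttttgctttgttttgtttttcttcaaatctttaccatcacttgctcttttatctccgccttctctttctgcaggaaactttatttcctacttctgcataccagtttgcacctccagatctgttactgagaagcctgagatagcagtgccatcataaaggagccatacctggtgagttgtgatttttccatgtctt
Ccr1, chr9:123968643-123968942, minus strand: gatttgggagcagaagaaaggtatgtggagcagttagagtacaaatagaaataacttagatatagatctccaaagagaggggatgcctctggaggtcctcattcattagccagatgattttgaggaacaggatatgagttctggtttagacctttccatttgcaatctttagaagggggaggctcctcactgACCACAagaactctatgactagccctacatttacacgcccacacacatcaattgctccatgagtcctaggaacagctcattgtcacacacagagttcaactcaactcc
Ccl3, chr11:83649329-83649628, minus strand: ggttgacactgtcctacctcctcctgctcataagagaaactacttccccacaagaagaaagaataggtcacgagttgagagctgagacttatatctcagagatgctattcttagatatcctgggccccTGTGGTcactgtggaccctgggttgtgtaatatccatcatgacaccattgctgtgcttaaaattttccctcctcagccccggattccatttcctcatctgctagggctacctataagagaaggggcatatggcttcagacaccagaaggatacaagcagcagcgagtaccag
The Ccr1 match begins 58 bases before the transcript start and lies on the opposite strand to the gene. The Ccl3 match begins 122 bases before the start, on the gene's own strand. The Ccr2 window lies inside the span given above for the gene, which starts at chr9:124101918, so the bases before that start were not searched. The absence of these letters from the Ccr2 window says nothing about binding, and no binding data were analysed here.

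The rest of the chemokine family was mostly silent on this array. Of 56 receptor and ligand genes with a probe set, the 9 members included, 7 passed the filter (12.5%), against 48.9% of all named genes. The share was 5 of 22 receptors and 2 of 34 ligands. Among the 19 other receptors listed, 17 had a probe set and 2 were tested, Ccrl2, an atypical member of the family, and Ackr4, a scavenger receptor that takes up chemokines. The 15 untested ones never read above 2.81. Among the 32 other ligands, 30 had a probe set and 2 were tested, Ccl9 and Ccl25, while the 28 untested ones never read above 3.75.

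Neither tested receptor nor ligand outside the members passed the threshold. Ccrl2 read 4.92 and 5.29 in the libraries titled fusion, against 5.72 and 4.83 in those titled control, a difference by title of -0.17 (SE 0.41, limma adjusted p = 1). By description Ccrl2 was higher by 0.64 (SE 0.23, limma adjusted p = 0.26), without overlap. Ackr4 read 5.42 and 4.05 in fusion, against 4.42 and 4.52 in control libraries by title, and differed by 0.26 (SE 0.54) by title and -0.73 (SE 0.39) by description. The library titled fusion replicate 1 was the highest for Ackr4, and the groups overlapped by title only.

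Ccl9, which in the mouse signals through CCR1, was the ligand with the widest range. It read 5.20 and 3.72 in the libraries titled fusion, against 4.11 and 8.24 in those titled control. Control replicate 2 alone was high, in contrast to Ccr2, which was low in that library. Ccl9 differed by -1.72 (SE 1.62, limma adjusted p = 1) by title and by -2.80 (SE 1.13, limma adjusted p = 0.30) by description, without overlap by description. Ccl25, a gut and thymus chemokine and the ligand of CCR9, read 7.78 and 8.11 in fusion, against 8.03 and 8.49 in control libraries by title. Ccl25 differed by -0.32 (SE 0.32) by title and -0.06 (SE 0.31) by description.

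**Figure D3:**
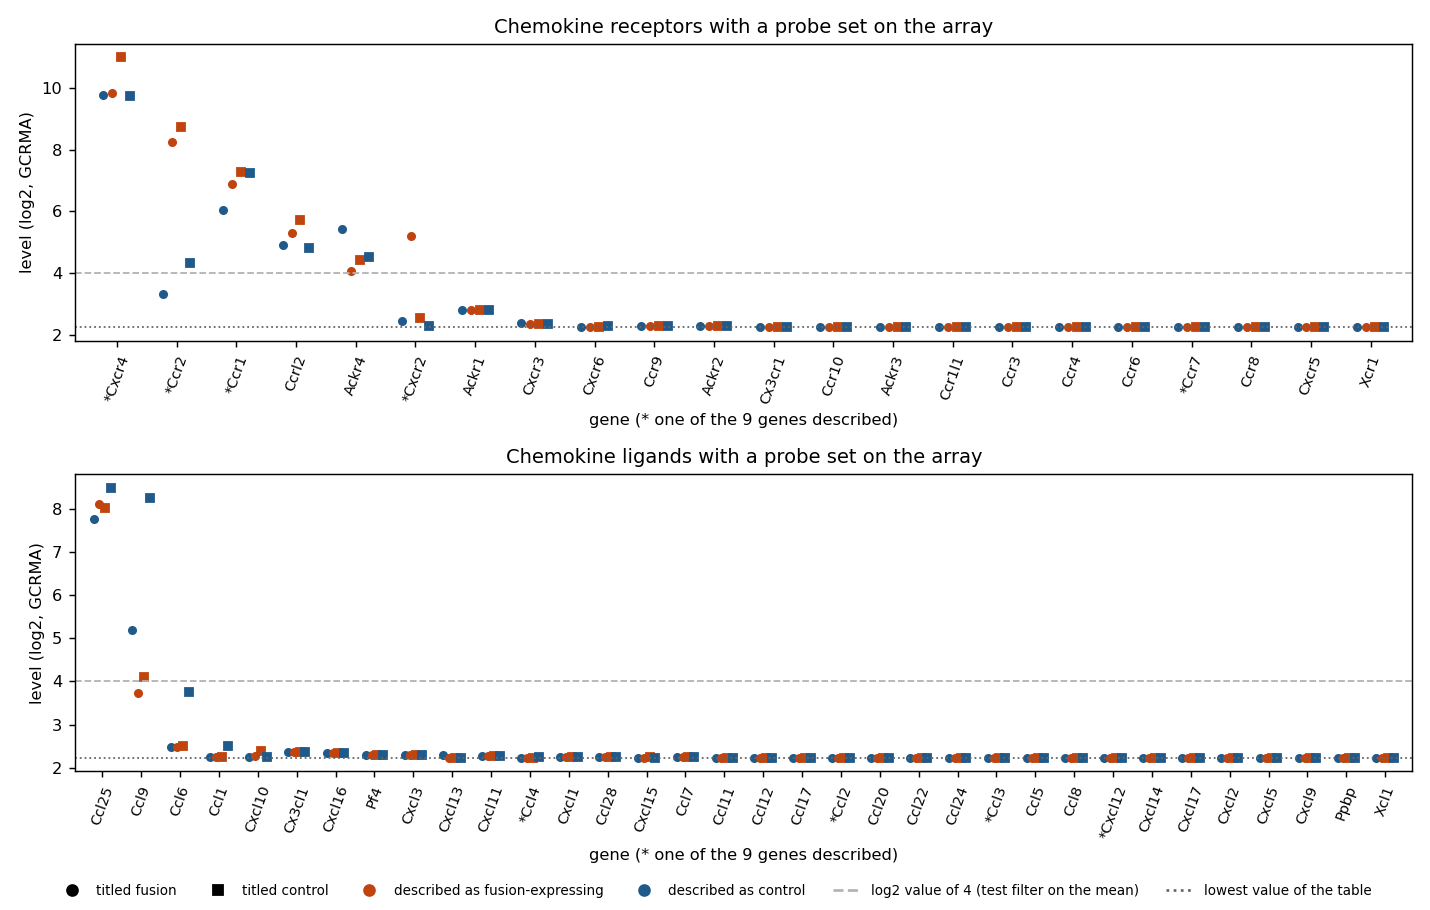
Levels (log2, GCRMA) of the 22 receptor genes and 34 ligand genes of the chemokine family with a probe set on the array, each at its tested probe set with the highest mean or, failing that, its brightest one; circles are libraries titled fusion, squares those titled control, and colour gives the condition in the description field. Readings above 4 were confined to 6 of the 22 receptors and 2 of the 34 ligands plotted, and the remaining genes read below 4 in every library, at most 3.75 at Ccl6 and 2.81 at Ackr1.

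Most of the listed signalling machinery below the receptors was above the filter. Of 44 signalling genes listed, 43 had a probe set and 38 were tested. By description 28 of the 38 were higher and 10 lower, with a median difference of 0.15, beside 51.5% higher and a median of 0.01 over all 8892 tested genes. By title 13 were higher and 25 lower, with a median of -0.04, beside 53.7% lower and a median of -0.02. No gene of the list passed the threshold in either grouping, with a lowest limma adjusted p of 0.12 by description and 1 by title. The list was described by its counts only, and its genes are not independent of each other.

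Pik3r6, a regulatory subunit of phosphoinositide 3-kinase gamma, read 8.93 in control replicate 1 and 8.76 in fusion replicate 2, the libraries described as fusion-expressing, against 7.21 in fusion replicate 1 and 7.12 in control replicate 2. Its difference was 1.67 (SE 0.17, limma adjusted p = 0.12) by description and -0.04 (SE 0.90) by title. Ptk2b, a kinase that responds to calcium and chemokines, differed by 0.90 (SE 0.17, limma adjusted p = 0.15) by description, and Pxn, the focal adhesion protein paxillin, by 0.68 (SE 0.16, limma adjusted p = 0.17). Neither overlapped between the described groups, and by title they differed by -0.01 and -0.02.

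Rgs18, which shortens G protein signals, ran the other way, at 11.89 and 11.52 in the libraries described as fusion-expressing, against 12.78 and 12.67 in those described as control. It differed by -1.02 (SE 0.16, limma adjusted p = 0.14) by description and by -0.13 (SE 0.56) by title. Arrb1, which encodes beta-arrestin 1, differed by 1.69 (SE 1.11) by description and -0.49 (SE 1.40) by title, with overlap in both, and its lowest reading was 3.44 in fusion replicate 1. By title the largest differences among the 38 were in Rgs2, another G protein regulator, at -0.67 (SE 0.21), and Prex1, a Rac exchange factor, at -0.53 (SE 0.26), both without overlap and both at a limma adjusted p of 1.

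**Figure D4:**
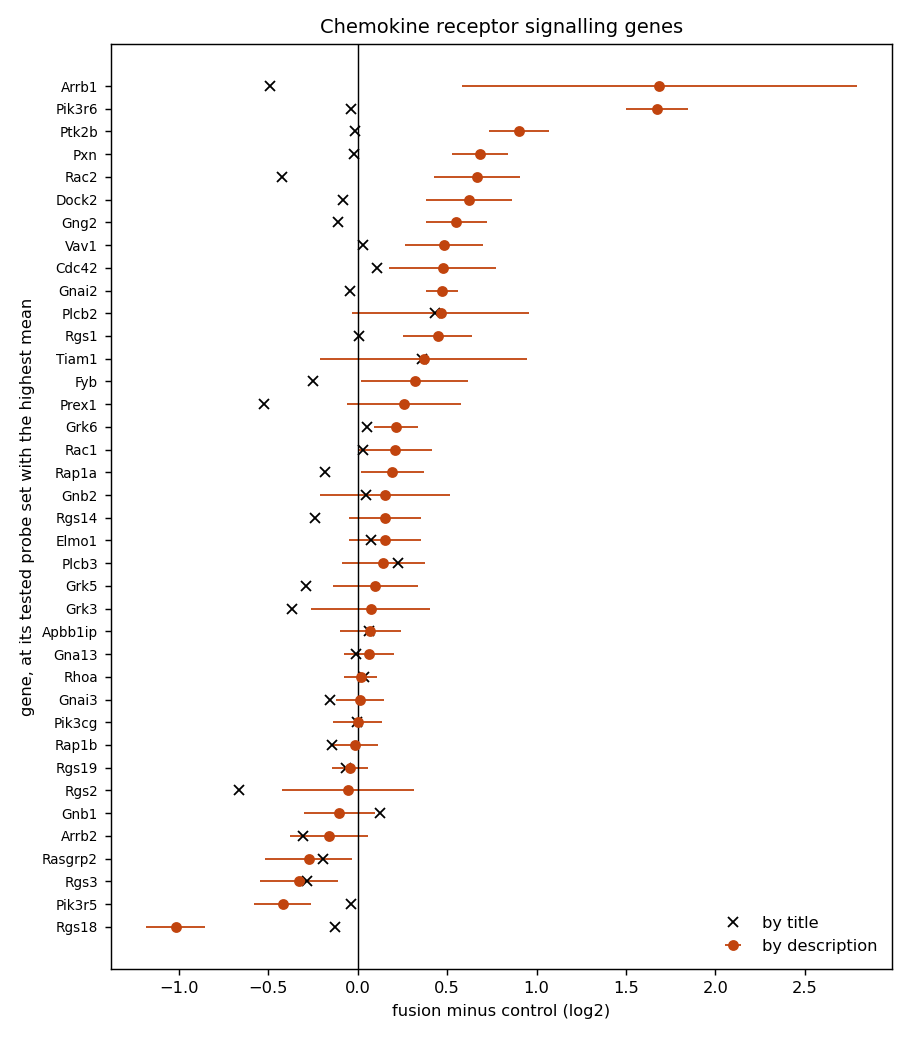
Fusion minus control difference (log2, horizontal axis) of the 38 tested chemokine receptor signalling genes, ordered by the description grouping; filled points with bars of 1 SE are by description and crosses are by title. The description differences ran from -1.02 at Rgs18 to 1.69 at Arrb1, and the title differences from -0.67 at Rgs2 to 0.43 at Plcb2.

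A pair of members spanned at least 2 log2 units at their brightest probe set. For these the closest patterns over the 4 libraries were sought among 8889 other genes with a tested probe set. Cxcr2 did not pass that filter itself, so genes as dim as Cxcr2 were not searched. Likeness was the Euclidean distance between mean-centred log2 values. The closest to Ccr2 were Slc11a1, a metal transporter of phagocytes, at a distance of 0.38, Hal, a histidine-degrading enzyme, at 0.54, and Slfn4 at 0.82. Slc11a1 read 9.73 and 9.76 in the libraries described as fusion-expressing, against 4.46 and 5.56 in those described as control, and differed by -0.54 by title. The closest to Cxcr2 were Pde8b, a cyclic AMP phosphodiesterase, at 0.82, Foxd2 at 0.92 and Hmox1, which encodes heme oxygenase, at 0.99. All 3 were highest in fusion replicate 2, at 8.48, 7.67 and 7.86. With 4 libraries many genes can share such an order, so these distances are a description.

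Several mast cell, basophil and other myeloid markers were high in the libraries where Ccr2 was high, and others were not. Of 20 listed, 17 had a probe set and 8 were tested, of which 6 were higher and 2 lower by description, with a median of 2.33, beside 51.5% higher and a median of 0.01 over all tested genes. By title 1 was higher and 7 lower, with a median of -0.97, beside 53.7% lower and a median of -0.02. None passed the threshold (lowest limma adjusted p = 0.13 by description and 1 by title). Nothing is read from these marker counts, because the list was chosen with earlier results of these data known. Fcer1a, for 1, passed the filter only through its readings in the fusion-described libraries. The mean level over the 17 genes was 5.34 and 4.88 in the libraries described as fusion-expressing, against 3.71 and 4.27 in those described as control. By title it was 3.71 and 4.88 in fusion, against 5.34 and 4.27 in control libraries. Fcer1a, the IgE receptor alpha chain, read 9.91 and 7.69 in the fusion-described libraries, against 2.37 and 2.32 in the control-described ones. Hdc, histidine decarboxylase, read 8.16 and 7.84 in the fusion-described, against 3.70 and 5.09 in the control-described libraries. Cma1, a mast cell chymase, read 11.39 and 7.99 in the fusion-described, against 6.27 and 2.23 in the control-described libraries, with title differences of -1.09 for Fcer1a, -0.86 for Hdc and 0.32 for Cma1. Lyz2 and Ms4a2 differed by 2.53 and 2.13 by description, both without overlap, and by -1.32 and -1.46 by title. Mpo, the granule enzyme myeloperoxidase, was highest in control replicate 2 at 8.0, as was Ccl9, and differed by -1.49 by description. Adgre1 ran the other way from Ccr2, at 4.37 and 5.30 in the fusion-described, against 5.53 and 7.37 in the control-described libraries. Its difference by description was -1.61, without overlap, and that of Gata2 was 0.20, with overlap. Kit, Elane, S100a8 and S100a9 were at the lowest value in all libraries. The part of these cells in the Ccr2 values was not tested, and in bulk RNA a change in the number of cells of a type cannot be told apart from a change in RNA per cell.

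The early B cell markers were largely at background. Of 14 with a probe set 3 were tested, Ptprc, Cd79b and Ighm, with differences of 0.18, 0.16 and -0.14 by description and -0.23, -0.34 and -0.08 by title. Vpreb1, Rag1, Il7r, Cd24a and Dntt read the lowest value in all libraries. Cd79a, also untested, read 4.47 in fusion replicate 2, against 2.69 in fusion replicate 1 and 2.89 in both libraries titled control. The 8 T and NK cell markers with a probe set never read above 2.41. Of 7 megakaryocyte and erythroid markers 5 were tested, 3 higher and 2 lower by description, with a median of 0.19, beside 51.5% higher over all tested genes. By title 2 were higher and 3 lower. Klf1, an erythroid transcription factor, read 5.93 and 5.52 in the fusion-described, against 7.39 and 8.80 in the control-described libraries. It differed by -2.37 by description and -0.91 by title. By description Epor differed by 0.90, Itga2b by 0.25, Gata1 by 0.19 and Tfrc by -0.39. Of 10 fibroblast and stromal markers 2 were tested, Vim and Acta2, and the 8 untested ones never read above 2.60. Vim, an intermediate filament, differed by 0.19 (SE 0.14) by description and 0.03 (SE 0.18) by title. Acta2, smooth muscle actin, read 10.80 and 10.76 in the fusion-described libraries, high where Ccr2 was high, against 9.0 and 9.79 in the control-described ones. It differed by 1.39 (SE 0.31, limma adjusted p = 0.17) by description without overlap and by -0.41 (SE 0.77) by title, and its part in the Ccr2 values was not tested. The 3′ minus 5′ difference of the actin control probe sets, a gauge of RNA integrity, was 0.63 to 0.70 over the libraries, and that of the Gapdh controls -0.37 to -0.30. Between 17517 and 17688 probe sets read at least 4 in each library.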

How the data were processed

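RNA levels of 4 BA/F3 libraries were analysed. The deposited table holds log2 values for 45101 probe sets, for which the submitters' processing notes name GCRMA 2.28.0, a method that corrects background by probe sequence, normalizes and summarises. The log2 scale is inferred from their range. The authors' filters, batches and test were not known from the labels. Arrays carry no read depth, so the number of libraries limits the precision.

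The 64 control probe sets were left out, and the 17720 probe sets with a mean of at least 4 were tested with limma 3.58.1 in R 4.3.3 (lmFit, eBayes with trend; two-sided; Benjamini-Hochberg over all tested probe sets; threshold 0.05). Each main fit had 2 libraries per group and 2 residual degrees of freedom. Fits with a replicate block or with 1 library left out had fewer degrees of freedom. The table's 34958 probe sets with 1 symbol were named from the platform annotation, and Entrez identifiers changed 0 names. A gene outside the members stands at its tested probe set with the highest mean. The fit was checked on simulated data.

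The members and gene lists were chosen with earlier results of these data known. Every member probe set was named. Other lists named up to 5 tested genes with the largest difference by description and up to 2 by title, plus the 3 closest patterns of each member spanning at least 2 log2 units. Untested genes named outside the members were chosen after their values were seen, as was Plcb2. Adgre1 and Gata2 were named outside this rule. Alternatives were the other grouping, no filter, a minimum of 6, no trend, a replicate block, centred medians, each library left out, all probe sets of a gene, and the replicate 2 pair alone. For member differences the other grouping was an alternative by title only, and the replicate 2 pair by description only. The design text speaks of promoter immunoprecipitation, but the protocols describe total RNA.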

Additional observations from a re-analysis of the deposited data

How the results depend on the processing

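By title limma called 0 probe sets under every setting tried other than grouping by description, which gave 2. That includes the fit with the replicate number as a block (0, with 48 at an unadjusted p under 0.05). It also includes a block with the numbers crossed (0, with 70). This was chosen after seeing the data, because the deviations of same-numbered libraries from their group means correlated at -0.20 by title. By description those deviations correlated at 0.59. The crossed blocks are the groups of the description field, so that fit removes the difference by description. By description the 2 calls of limma became 0 when grouped by title, 0 without the filter (3626 at an unadjusted p under 0.05), 0 with a replicate block (5579) and 10 with library medians centred, and 0 with any 1 library left out (1764 to 2524). The minimum of 6 and the fit without trend each kept the count at 2. Centring moved the library medians by -0.02 to 0.03. The cause of these changes was not tested. No member was called by title or by description. The Ccr2 difference by description lay between 2.63 and 5.19 over its 7 alternatives, the lower value from averaging all its probe sets. These 7 leave out the grouping by title, which gave -0.75 and so the opposite sign. By title the Ccr2 alternatives, with grouping by description among them, ran from -3.22 to 4.68. Values at the lowest level of the table limit what can be said of Ccr7, Ccl2, Ccl3, Ccl4 and Cxcl12.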
